A study of Mus musculus with 14 samples.

Results

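The genes described here are interferon-stimulated genes, 39 genes that type I or type II interferon is known to induce, including Calhm6. The list was given by symbol and was drawn up with earlier results of these data known, and 38 of its 39 genes were matched among the 21853 genes of the expression table. Mx2 was not analysed here. Calhm6 was chosen by its FPKM in OT against OC ovaries, and the other genes by their known induction by interferon. The differences between treated and control mice are therefore given below as a description, and the difference between the uterus and the ovary, which the list did not use, was tested.

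The data were stranded total RNA sequencing libraries, depleted of rRNA, from the ovary and the uterus of female C57BL/6J mice aged 28 weeks. The OT group (4 mice) received conditioned medium of human amniotic-membrane-derived mesenchymal stem cells (AMSC-CM), pooled from 3 donors, through the tail vein at 1 µL per g of body weight, in 6 injections 4 days apart. The OC group (3 mice) received saline. Before the injections all of these mice had been given pregnant mare serum gonadotropin and, 48 h later, human chorionic gonadotropin, 10 IU each, so the controls also carried the hormone priming. Together they gave 14 libraries in 4 groups, and a library is named here by its number in the labels, such as OT1. Same-numbered ovary and uterus libraries were read as 1 mouse, which the labels imply without stating it.

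Interferons are secreted when cells sense foreign or misplaced nucleic acid or when lymphocytes are activated. Type I interferons act through the receptor IFNAR and lead to binding at the interferon-stimulated response element (ISRE), and type II interferon acts through IFNGR and leads to binding at the gamma-activated sequence (GAS). In the female tract these genes are known for barrier defence and for the changes that uterine natural killer cells bring about in the endometrium.

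These elements were looked for in the promoters, since they are what the genes are thought to share. RefSeq promoter windows (GRCm38.p6, 250 bases before to 50 bases after the start site) were found for 28 of the 38 genes. The ISRE core, read as GAAA, any pair of bases and GAAA again and searched on both strands, was present in 16 of these 28 genes (57.1%), against 3.99% of 27025 genes with a promoter window. The GAS letters TTCNNNGAA, which read the same on either strand, were present in 9 of 28 (32.1%), against 9.55% of all genes. At least 1 of the elements was present in 20 of 28 genes (71.4%, against 12.9%), and both in 5. A match describes letters in a window and does not show that a factor binds there. The sequences below were picked from the genes with a match. Xaf1, Ifi44 and Psmb9, whose values are also given below, had windows without either element. Sequences are written 5′ to 3′ on the strand of the gene, with the letters matched to the named element in capitals. For Calhm6 the whole window is given, and for the others the match with up to 15 bases on either side.
Calhm6 (chr10:34127923-34128222, minus strand, ISRE at positions -64 to -55 from the start site): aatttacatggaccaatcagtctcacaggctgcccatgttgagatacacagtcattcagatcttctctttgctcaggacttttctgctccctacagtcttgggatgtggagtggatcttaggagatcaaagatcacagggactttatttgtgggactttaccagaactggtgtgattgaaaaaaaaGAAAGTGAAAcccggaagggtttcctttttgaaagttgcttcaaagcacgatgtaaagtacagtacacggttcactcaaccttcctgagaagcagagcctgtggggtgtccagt
Isg15 (chr4:156200860-156200911, minus strand, ISRE): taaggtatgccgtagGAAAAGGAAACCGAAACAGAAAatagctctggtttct
Ifit1 (chr19:34640770-34640828, plus strand, ISRE): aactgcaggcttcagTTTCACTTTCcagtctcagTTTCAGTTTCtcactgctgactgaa
Oas1a (chr5:120907515-120907560, minus strand, ISRE): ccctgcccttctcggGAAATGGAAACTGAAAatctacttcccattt
Oas3 (chr5:120777710-120777749, minus strand, ISRE): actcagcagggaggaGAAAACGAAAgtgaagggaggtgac
Bst2 (chr8:71537572-71537617, minus strand, ISRE): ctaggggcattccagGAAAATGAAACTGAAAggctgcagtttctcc
Gbp2 (chr3:142620589-142620628, plus strand, ISRE): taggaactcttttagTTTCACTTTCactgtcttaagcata
Irf1 (chr11:53769909-53769947, plus strand, GAS): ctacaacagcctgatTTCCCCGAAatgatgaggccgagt
Psmb8 (chr17:34198083-34198121, plus strand, GAS): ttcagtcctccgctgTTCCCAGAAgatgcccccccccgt
The Isg15 stretch held 3 overlapping matches, the Oas1a and Bst2 stretches 2 overlapping matches each and the Ifit1 stretch 2 separate ones. Calhm6 and Gbp2 each had 1 ISRE match, on opposite strands. Irf1 and Psmb8 held the GAS letters and no ISRE core in their windows. Bst2 and Oas1a held the GAS letters as well as the ISRE core, at positions -136 to -128 and -98 to -90 from the start site. In Bst2 the GAS letters overlap the printed ISRE match and are partly in lower case there.

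Expression was deposited as FPKM, in which a gene's fragments are divided by its transcript length and by the library's mapped fragments, so levels can be compared between genes, and the depth behind each value is unknown. Total FPKM per library ranged from 374816 to 397644 in ovaries and from 425875 to 577494 in uteruses, with the highest total in OT1. The tissue markers separated the labelled tissues: 10 ovary markers summed to 3517 to 4620 FPKM in ovaries and 30.5 to 50.7 in uteruses, and 10 uterus markers to 245 to 924 and 2893 to 5120 FPKM. Hoxa10, a gene of the uterus, was nevertheless at 0.572 to 53.4 FPKM in the ovaries and above 10 FPKM in 4 of the 7. The sum of 8 adipocyte markers was 197 to 308 FPKM in OC and 241 to 1786 in OT ovaries, and 68.2 to 250 in OC and 1211 to 11298 in OT uteruses, where OT1 was highest. The sum of 8 stratified epithelium markers was 2.89 to 13.8 FPKM in OC and 47.97 to 915 in OT uteruses.

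Bst2 (tetherin, which holds budding virus at the cell surface) and Ifi27 (an interferon-induced membrane protein) had the highest FPKM of the list in both tissues. Bst2 was at 148 ± 13.4 FPKM in ovaries and 117 ± 20.3 in uteruses (SD, n = 7), and Ifi27 at 121 ± 18.6 and 102 ± 58.4 FPKM. The ranges of these genes overlapped in both tissues, so their order is not resolved by the spread. Gbp2, Psmb8 and Irf1 followed, between 21.4 and 23.4 FPKM in ovaries and between 30.4 and 39.9 in uteruses. The lowest levels were those of Oas3 (0.398 ± 0.0611 FPKM) in the ovary and Calhm6 in the uterus, and Mx1 was at 0.981 ± 0.350 FPKM in ovaries and 1.83 ± 0.707 in uteruses (SD, n = 7). Mx1 encodes an antiviral GTPase and is known to be disrupted in C57BL/6J mice. FPKM of the near-identical members of the IFIT, OAS, GBP and IRG families are uncertain where reads could be split between paralogs.

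**Figure D1:**
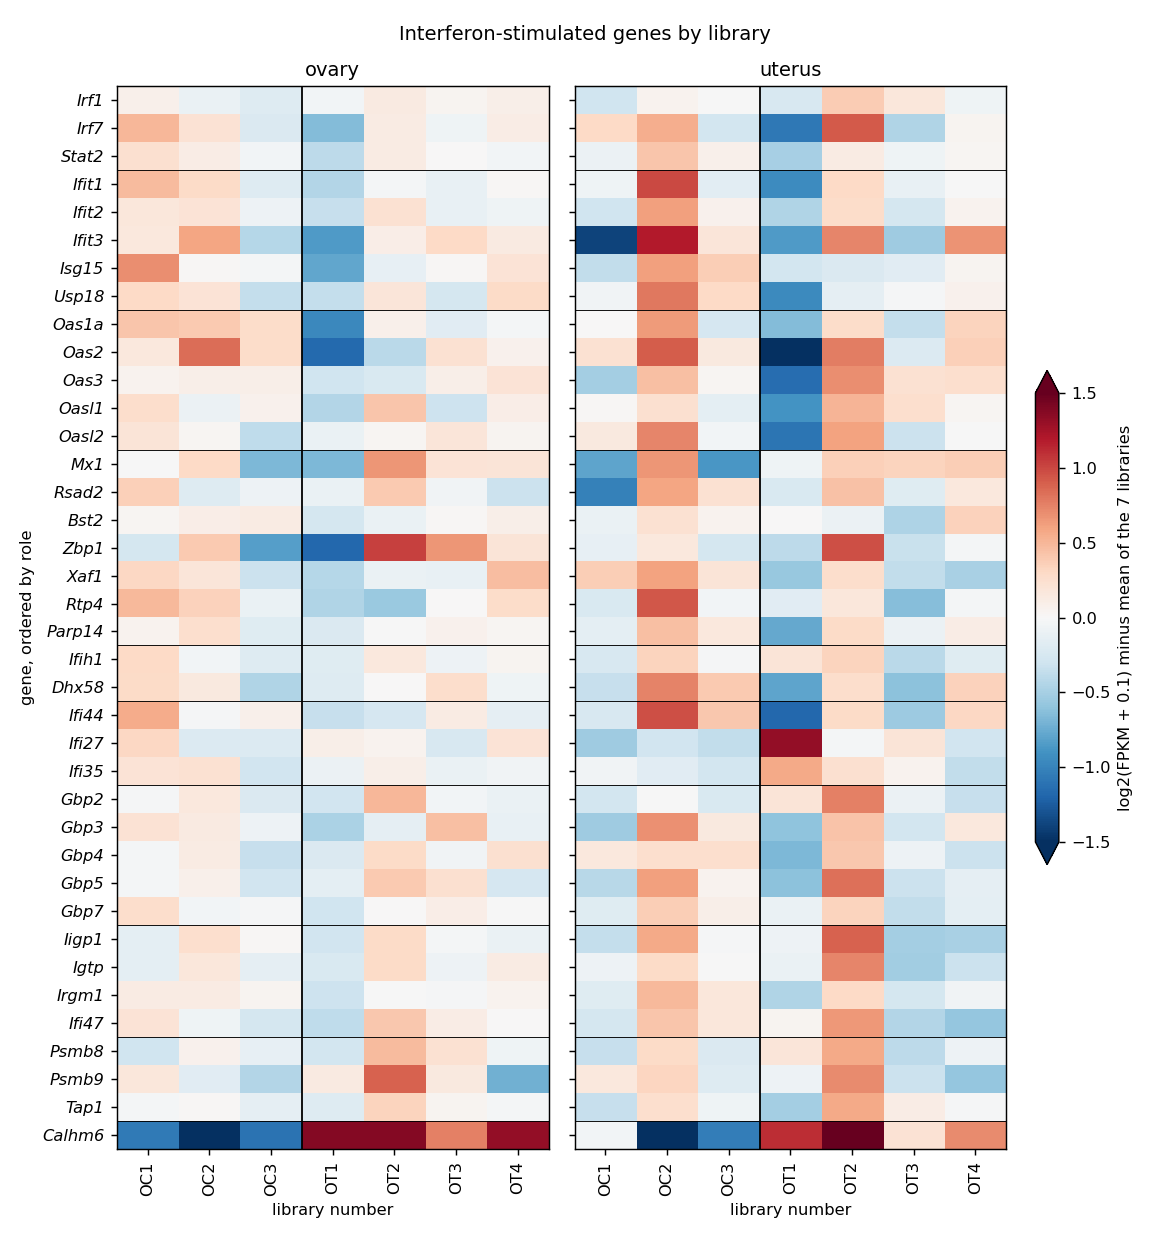
Each row is 1 of the 38 interferon-stimulated genes and each column 1 library of the ovary (left) or uterus (right). Colour gives log2(FPKM + 0.1) minus the mean of the 7 libraries of that tissue, capped at 1.5 in either direction. Calhm6, in the bottom row, is the gene whose OT libraries are all above its OC libraries in both tissues.

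To describe the response to AMSC-CM, each gene was compared between OT and OC on log2(FPKM + 0.1), a scale that understates the change of genes near 0.1 FPKM. The cutoffs were a fold of 2 and an unadjusted p of 0.05 in limma. In the ovary 37 of the 38 genes passed the filter of a mean of 0.5 FPKM, and Oas3 did not. Of these 37, 1 gene (Calhm6) was called higher in the OT-group ovaries, where 0.368% of 14415 genes were called higher, and 0 were called lower, where 0.0832% were. In the uterus all 38 genes passed, 1 gene (Calhm6 again) was called higher, against 2.23% of 14151 genes, and 0 were called lower, against 0.664%. At a Benjamini-Hochberg adjusted p under 0.05 in limma, 0 of all genes tested were called in either tissue, and 650 ovary genes and 1160 uterus genes had an unadjusted p under 0.05, among them 2 listed genes in each tissue (Calhm6 and Oas1a in the ovary, Calhm6 and Xaf1 in the uterus). These counts are read as a description only, since the list was made with the differences known. Calhm6 also passed the filter only through its OT libraries. Its means were 0.132 FPKM in OC and 1.38 in OT ovaries, and 0.259 in OC and 1.32 in OT uteruses. Once tested it was thus bound to be higher in OT, and the shares of all genes say little about its call or its lack of overlap.

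Calhm6 is a calcium homeostasis modulator family channel that interferon-gamma is known to induce in macrophages and other antigen-presenting cells; the gene lies at chr10:34126067-34127984 on the minus strand (GRCm38). In OC-group ovaries Calhm6 was at 0.203 FPKM in OC1, listed at 0 in OC2 and at 0.192 in OC3. In OT-group ovaries Calhm6 was at 1.53, 1.54, 0.969 and 1.47 FPKM in OT1 to OT4. All OT ovaries were thus above all OC ovaries, which held for 2.78% of all genes tested in the ovary. In OC-group uteruses Calhm6 was at 0.551 FPKM in OC1, listed at 0 in OC2 and at 0.228 in OC3. In OT-group uteruses Calhm6 was at 1.35, 2.24, 0.682 and 0.998 FPKM in OT1 to OT4. The groups again did not overlap, as for 6.46% of genes tested in the uterus, and the gap between OC1 and OT3 was small. On the log2 scale OT exceeded OC by 2.81 (SE 0.47) in the ovary and by 2.24 (SE 0.71) in the uterus, from levels that never passed 2.24 FPKM. With a pseudocount of 1 in place of 0.1 the differences were 1.07 and 0.86, and the uterus call was lost; with 0.01 they were 4.18 and 3.46. Leaving out 1 library gave 2.29 to 3.09 in the ovary and 1.5 (without OC2) to 2.85 (without OC1) in the uterus.

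**Figure D2:**
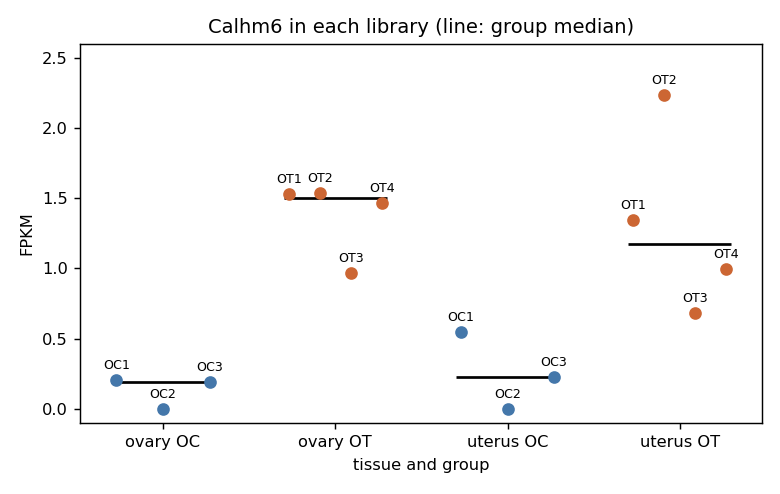
Points give the FPKM of Calhm6 in each library, marked with its number, by tissue and group; the line is the group median. The OC libraries lie between 0 and 0.551 FPKM and the OT libraries between 0.682 and 2.24 FPKM.

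Macrophage markers, listed because Calhm6 is known from these cells, were also compared. The sum of 8 macrophage markers was 168 to 204 FPKM in OC and 191 to 275 in OT ovaries. For uteruses the sum was 211 to 233 FPKM in OC and 235 to 588 in OT. In each tissue 7 of the 8 markers were higher in OT, against 46.6% of all ovary genes tested and 51.1% of uterus genes. No marker was called, and among all genes only 0.368% (ovary) and 2.23% (uterus) were called higher. With 8 markers these counts are a description only. None of these markers was at 0 in all libraries of a tissue. The OT2 uterus held both the highest Calhm6 and the highest macrophage sum (588 FPKM), and the OT3 ovary both the lowest OT Calhm6 and the lowest OT sums of macrophage (191 FPKM) and adipocyte markers (241 FPKM). In other libraries the order differed: the OC2 ovary, where Calhm6 was listed at 0, had a macrophage sum of 204 FPKM, above that of the OT3 ovary. The part of these cells in the Calhm6 difference was not tested. In tissue RNA, more cells of a type and more RNA per cell cannot be told apart.

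Apart from Calhm6, no listed gene differed by a fold of 2 between OC and OT. On the log2 scale changes ran from -0.75 (Oas2) to 0.41 (Zbp1) in the ovary and from -0.75 (Oas2) to 0.69 (Ifi27) in the uterus. In the ovary 34 of 37 genes changed by less than 1.5-fold, against 96.3% of all genes tested, and in the uterus 32 of 38, against 86.4%, shares near those of genes in general. The median change of the list, Calhm6 included, was -0.08 among ovaries and -0.16 among uteruses, where the medians over all genes tested were -0.01 and 0.01. Changes below 0 were found for 22 of 37 genes in the ovary (53.4% of all genes tested) and 26 of 38 in the uterus (48.9%). The sign of these medians rested on single libraries: without OT1 the ovary median was 0.02, and without OC2 the uterus median was 0.01.

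**Figure D3:**
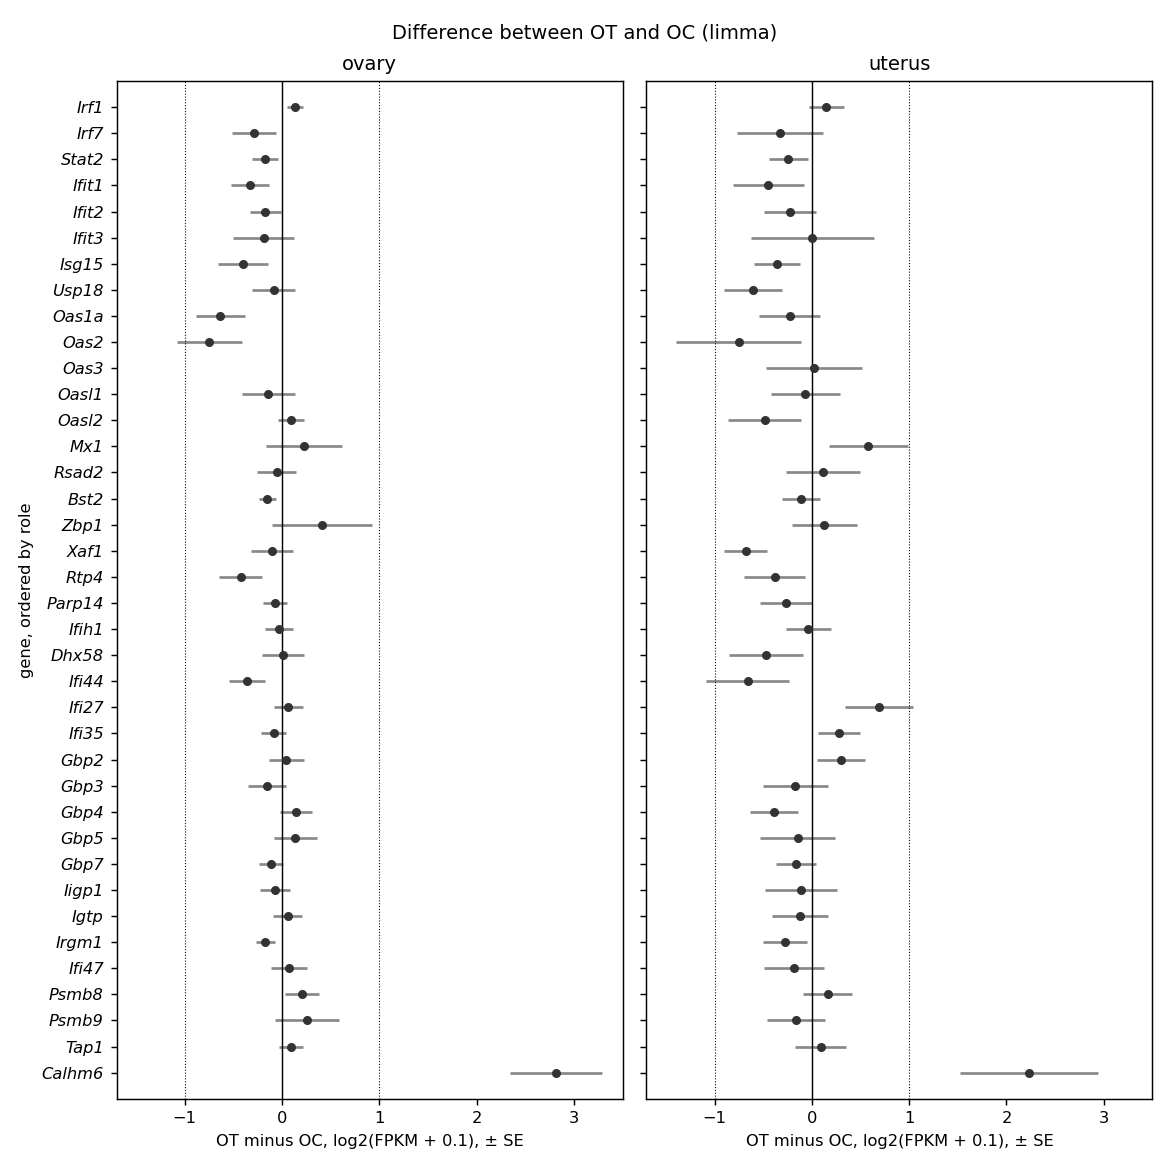
Points give the OT minus OC difference of each gene in log2(FPKM + 0.1), with its standard error from limma, in the ovary (left) and uterus (right); dotted lines mark a fold of 2. Oas3 has no ovary value because it did not pass the filter, and Calhm6 lies at 2.81 and 2.24 while the other genes lie between -0.75 and 0.69.

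Among the transcription factors, Irf1, an early interferon-induced factor, was at 24.6, 21.8 and 20.4 FPKM in the OC ovaries and 22.8, 25.7, 24.1 and 24.8 in the OT ovaries. In uteruses Irf1 was at 24.4, 31.2 and 29.9 FPKM in OC and 25.4, 39.3, 33.9 and 28.7 in OT. The groups overlapped in both tissues, with differences of 0.13 (SE 0.08) and 0.15 (SE 0.18). Irf7, which amplifies the type I response, and Stat2, a subunit of the factor that binds the ISRE, differed by -0.29 and -0.18 in the ovary and by -0.33 and -0.24 in the uterus, and neither was called.

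The IFIT genes (Ifit1, Ifit2 and Ifit3, which bind foreign RNA), Isg15 (a ubiquitin-like modifier) and Usp18 (the protease that removes ISG15) mostly had OT minus OC differences below 0. All 5 differences were below 0 in the ovary, from -0.40 for Isg15 to -0.08 for Usp18, and 4 of 5 were in the uterus, from -0.61 for Usp18 to 0.01 for Ifit3, where 53.4% and 48.9% of all genes were below 0. OT1 was the lowest ovary for 4 of the 5 genes, and OC2 the highest uterus for all 5. None of the 5 was called in either tissue, and the OC and OT libraries of each overlapped. Ifit1, Ifit2 and Ifit3 lie together on chr19, between 34550694 and 34650009.

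The OAS genes encode 2-5A synthetases, which activate RNase L on double-stranded RNA, and Oas2 had the lowest OT minus OC difference of the list in both tissues, without being called. Oas2 (chr5:120730333-120749853) was at 3.59, 5.83 and 3.91 FPKM in the OC ovaries and 1.38, 2.39, 3.77 and 3.37 in the OT ovaries. In uteruses Oas2 was at 12.4, 20.0 and 11.7 FPKM in OC and 2.22, 18.1, 9.15 and 13.6 in OT. The OT1 library was the lowest of both tissues and the groups overlapped. The differences of -0.75 in the ovary (SE 0.34) and in the uterus (SE 0.65) were -0.46 and -0.13 without OT1, so the uterus value rested largely on that library.

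Oas1a (chr5:120896256-120907521) was at 3.65, 3.58 and 3.30 FPKM in the OC ovaries and 1.34, 2.85, 2.41 and 2.66 in the OT ovaries. It was the only listed gene with all OT libraries below all OC libraries in the ovary, which held for 3.13% of all genes tested, and its difference was -0.63 (SE 0.25), short of a fold of 2. In uteruses Oas1a was at 4.96, 7.72 and 4.11 FPKM in OC and 3.11, 5.98, 3.83 and 6.24 in OT, where the groups overlapped (-0.23, SE 0.32). No listed gene had all OT below all OC libraries in the uterus, against 5.48% of all genes tested.

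Oas3, the neighbour of Oas2, was at 0.413, 0.425 and 0.428 FPKM in the OC ovaries and 0.303, 0.324, 0.425 and 0.470 in the OT ovaries. In uteruses Oas3 was at 0.739, 1.54 and 1.12 FPKM in OC and 0.441, 1.84, 1.30 and 1.33 in OT, with overlapping groups and a difference of 0.02 (SE 0.49). Oasl1 and Oasl2, which encode OAS-like proteins, differed by -0.14 and 0.09 in the ovary and by -0.07 and -0.49 in the uterus.

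Of the antiviral effectors, Bst2 was at 151, 158 and 161 FPKM in the OC ovaries and 123, 137, 150 and 156 in the OT ovaries. In uteruses Bst2 was at 108, 135 and 120 FPKM in OC and 116, 109, 84.0 and 147 in OT. Both differences were small against their errors (-0.15, SE 0.09, and -0.11, SE 0.20), and the groups overlapped.

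Zbp1, a sensor of Z-form nucleic acid that triggers necroptosis, varied more. It was at 1.80, 2.90 and 1.18 FPKM in the OC ovaries and 0.904, 4.54, 3.51 and 2.51 in the OT ovaries. In uteruses Zbp1 was at 4.31, 5.27 and 3.899 FPKM in OC and 3.55, 9.28, 3.72 and 4.61 in OT. OT1 was lowest and OT2 highest in both tissues, so the OT group spanned the OC group, with differences of 0.41 (SE 0.52) and 0.13 (SE 0.34).

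Xaf1, a pro-apoptotic partner of XIAP, was at 14.4, 13.0 and 9.22 FPKM in the OC ovaries and 8.56, 10.7, 10.6 and 15.8 in the OT ovaries. In uteruses Xaf1 was at 17.5, 20.7 and 15.6 FPKM in OC and 9.09, 16.3, 10.5 and 9.68 in OT. The uterus groups overlapped only through OT2 and OC3, and the difference of -0.68 (SE 0.22) was the second lowest of the list. Rtp4, a receptor chaperone that restricts flaviviruses, was at 15.4, 14.02 and 10.2 FPKM in the OC ovaries and 7.99, 7.44, 11.1 and 13.3 in the OT ovaries. In uteruses Rtp4 was at 7.56, 17.1 and 8.62 FPKM in OC and 7.90, 10.1, 5.70 and 8.76 in OT. Its differences were -0.42 (SE 0.22) and -0.38 (SE 0.31), with overlap in both tissues. Mx1 (0.23 and 0.58), Rsad2, which makes a chain-terminating nucleotide (-0.05 and 0.11), and Parp14, an ADP-ribosyltransferase (-0.07 and -0.27), were not called in either tissue.

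The cytoplasmic RNA sensors Ifih1 (MDA5) and Dhx58 (LGP2) differed by -0.03 and 0.01 in the ovary and by -0.04 and -0.47 in the uterus. Ifi44, a cytoplasmic protein of uncertain role, was at 5.98, 3.98 and 4.23 FPKM in the OC ovaries and 3.14, 3.36, 4.37 and 3.65 in the OT ovaries. In uteruses Ifi44 was at 4.01, 9.41 and 6.34 FPKM in OC and 2.04, 5.83, 3.23 and 5.91 in OT. Differences of -0.36 (SE 0.18) and -0.66 (SE 0.43) came with overlapping groups.

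Ifi27 was at 148, 104 and 103 FPKM in the OC ovaries and 127, 124, 101 and 138 in the OT ovaries. In uteruses Ifi27 was at 64.3, 76.4 and 72.1 FPKM in OC and 231, 90.7, 106 and 75.8 in OT. OT1 stood far above the rest, and OT4 lay just under OC2. The difference of 0.69 (SE 0.35) fell to 0.35 without OT1 and to 0.23 without OT1 and OT3 (chosen after seeing the data). OT1 and OT3 were the OT uteruses with the highest Ifi27, so leaving them out had to lower the difference. They also had the highest adipocyte sums of the OT uteruses (11298 and 2242 FPKM). The stratified epithelium sum was highest in OT3 (915 FPKM), followed by OT4 (427 FPKM) and OT1 (230 FPKM). Among the ovaries OT1 had the highest adipocyte sum (1786 FPKM), while its Ifi27 of 127 FPKM lay within the OC range. The part of adipose tissue or of epithelium was not tested.

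Guanylate-binding proteins (GBPs) and immunity-related GTPases (IRGs) attack the vacuoles of intracellular parasites and bacteria, and PSMB8, PSMB9 and TAP1 cut and transport peptides for MHC class I; interferon-gamma is their best known inducer. Gbp2 (chr3:142620602-142638008) was at 20.8, 23.6 and 18.0 FPKM in the OC ovaries and 17.3, 29.9, 20.4 and 19.7 in the OT ovaries. In uteruses Gbp2 was at 31.8, 38.4 and 32.9 FPKM in OC and 44.1, 65.2, 36.4 and 30.3 in OT. OT2 was highest in both tissues, and the groups overlapped (0.04, SE 0.18, and 0.30, SE 0.25).

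Iigp1, which encodes the effector GTPase IRGA6, was at 7.98, 10.5 and 8.93 FPKM in the OC ovaries and 7.24, 10.8, 8.62 and 8.20 in the OT ovaries. In uteruses Iigp1 was at 14.6, 27.7 and 18.5 FPKM in OC and 17.7, 34.7, 13.1 and 13.3 in OT. OT2 was again highest in both tissues, and the differences were -0.08 (SE 0.15) and -0.11 (SE 0.37).

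Psmb8 was at 18.6, 24.0 and 21.1 FPKM in the OC ovaries and 18.9, 31.8, 26.7 and 21.9 in the OT ovaries. In uteruses Psmb8 was at 24.2, 37.5 and 26.3 FPKM in OC and 34.7, 45.4, 23.4 and 29.2 in OT. The highest value was that of OT2 in each tissue (differences of 0.20, SE 0.17, and 0.16, SE 0.25). Psmb9 was at 8.53, 6.69 and 5.55 FPKM in the OC ovaries and 8.35, 14.05, 8.38 and 4.54 in the OT ovaries. In uteruses Psmb9 was at 15.8, 17.7 and 12.3 FPKM in OC and 13.4, 23.1, 11.3 and 9.44 in OT. OT2 was highest and OT4 lowest in both tissues, with differences of 0.26 (SE 0.33) and -0.16 (SE 0.30). Psmb9, Tap1 and Psmb8 lie side by side on chr17, from 34181987 to 34201454, and the RefSeq start sites of Psmb9 and Tap1 are 226 bases apart on opposite strands, so that their promoter windows share 275 bases. The other genes of these families (Gbp3, Gbp4, Gbp5, Gbp7, Igtp, Irgm1, Ifi47 and Tap1) differed between OC and OT by -0.17 to 0.14 in the ovary and by -0.39 to 0.09 in the uterus, and none was called.

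Single libraries held many of the extremes of these genes. In the ovary OT1 was the lowest library for 22 of 37 listed genes, against 19.6% of all genes tested, and OT2 the highest for 16, against 16.0%. Of the OC ovaries, OC1 was the highest for 13 genes, against 14.3% of all genes, and OC3 the lowest for 9, against 9.83%. In the uterus OC2 was the highest for 20 of 38 genes, against 12.9% of all genes tested, OT2 the highest for 15, against 12.7%, and OT1 the lowest for 20, against 32.5%. Within the OT group, OT2 was thus often high and OT1 often low.

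Ovary and uterus of the same number showed this for the same genes. Of the 37 genes tested in both tissues, 13 were highest in OT2 both in the ovary and in the uterus (Irf1, Oasl1, Zbp1, Gbp2, Gbp4, Gbp5, Iigp1, Igtp, Ifi47, Psmb8, Psmb9, Tap1 and Calhm6), against 3.38% of all 13653 genes tested in both. OT1 was the lowest in both tissues for 14 genes (Irf7, Stat2, Ifit1, Ifit2, Oas1a, Oas2, Oasl1, Zbp1, Xaf1, Parp14, Ifi44, Gbp3, Irgm1 and Tap1), against 7.43% of all genes. Oasl1, Zbp1 and Tap1 were in both sets, highest in OT2 and lowest in OT1. OC2 was the highest in both tissues for 4 genes (Ifit3, Oas2, Parp14 and Irgm1), against 3.10%.

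The genes were also looked at in 2 sets, a grouping made after the values were seen. Among the 10 IFIT, ISG15 pathway and OAS genes tested in the uterus, OC2 was highest for 8 and OT1 lowest for 8. Among the 12 GBP, IRG, immunoproteasome and peptide transport genes, OT2 was highest for 9 genes in either tissue, and these were the same genes. OT1 was the lowest ovary for 7 of the 9 tested genes of the first set and for 8 of 12 of the second, and the lowest uterus for 5 of 12 of the second. The median deviation from the tissue mean in OT1 was -0.92 for the first set and -0.10 for the second in the uterus, and -0.44 and -0.28 in the ovary, on the log2 scale. The sum of macrophage markers was highest in OT2 in both tissues (275 and 588 FPKM). It was 266 FPKM in the OT4 ovary and 435 FPKM in the OT1 uterus. The sum of 10 T and NK cell markers in the uterus was 25.3 FPKM in OT1, the lowest, 38.5 in OT2 and 79.8 in OC2, the highest. In the OC3 uterus, the highest library for 0 of 38 listed genes, the T and NK sum was 78.3 FPKM. OT1 had the highest adipocyte sums in both tissues (1786 and 11298 FPKM). The part of these cells in the differences between libraries was not tested.

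**Figure D4:**
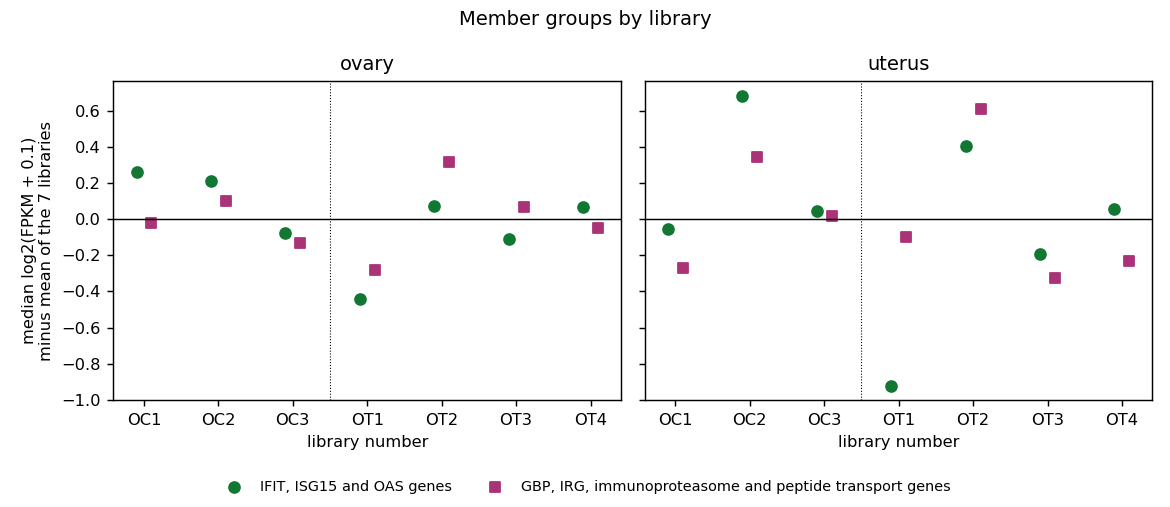
Circles give the median over the IFIT, ISG15 and OAS genes and squares the median over the GBP, IRG, immunoproteasome and peptide transport genes of log2(FPKM + 0.1) minus the mean of the 7 libraries, in each ovary (left) and uterus (right) library. The OT1 uterus lies at -0.92 for the first set and -0.10 for the second, and OT2 is the highest library of the second set in both tissues.

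The comparison of the uterus with the ovary was tested across all 14 libraries with limma, with p-values adjusted by Benjamini-Hochberg over 14557 genes. Of the 38 genes, 4 were higher in the uterus at a fold of 2 and an adjusted p under 0.05, against 10.0% of all genes tested, and 0 were lower, against 9.59%. Without the fold cutoff 19 were higher, against 26.1% of all genes, and 1 was lower, against 26.8%. The median difference of the list was 0.41, where that of all genes was 0.00, and 32 of 38 genes were above 0. Oas3, which failed the filter in the ovary, entered this comparison through its uterus level and so had to differ. Over the 37 genes that passed in each tissue on its own, 3 were higher at a fold of 2, 18 without the fold cutoff and 1 was lower, with a median of 0.40. The count of 19 fell to 10 without OC2 and to 9 without OC3. Without the 4 mice whose ovaries held over 10 FPKM of Hoxa10 it was 0, in a fit of 3 mice where the calls over all genes fell too, from 3798 to 888 of 14527, and the median of the list was 0.26.

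**Figure D5:**
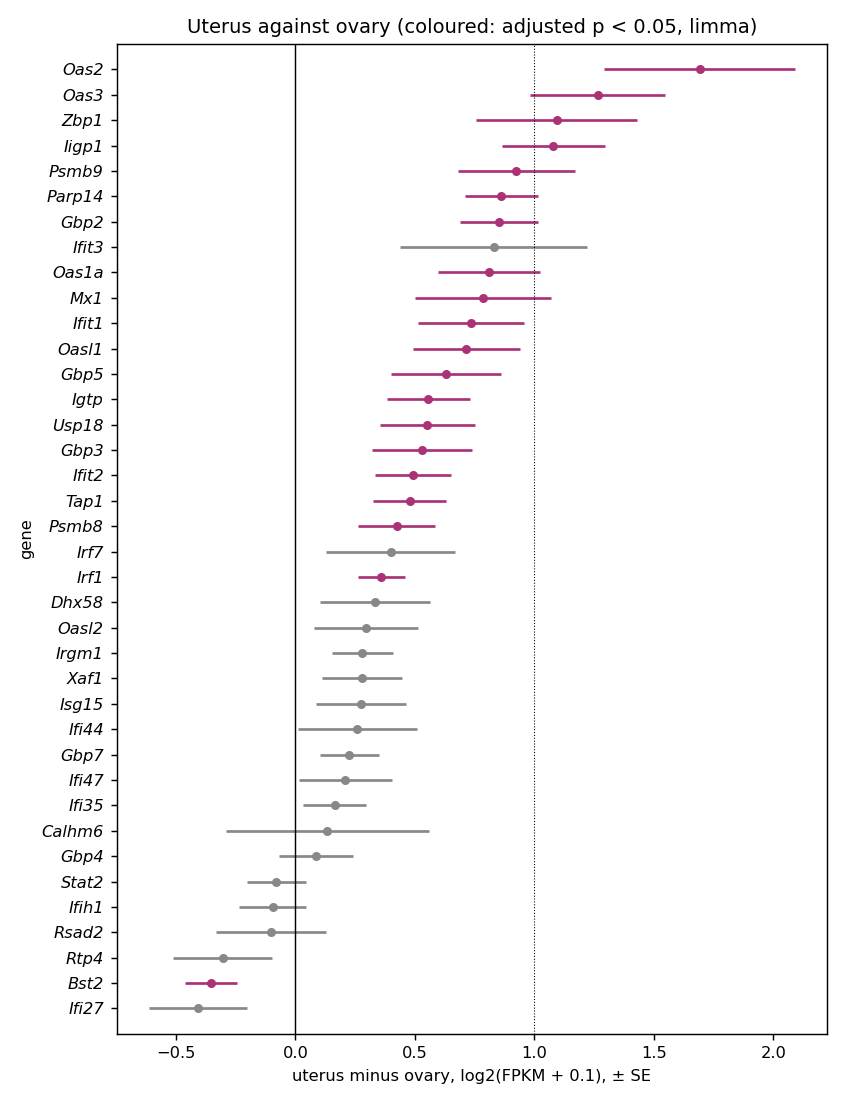
Points give the uterus minus ovary difference of each of the 38 genes in log2(FPKM + 0.1) with its standard error from limma, and coloured points have an adjusted p under 0.05. Oas2 leads at 1.69, Bst2 at -0.35 is the coloured gene below 0, and the dotted line marks a fold of 2.

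The OAS genes were the group with the largest difference between tissues, with 4 of 5 rising in the uterus and a median of 0.81; among the 4 that passed the filter in each tissue 3 rose, with a median of 0.76. Oas2 was 3.23-fold higher on the log2(FPKM + 0.1) scale (log2 1.69, SE 0.40, limma adjusted p = 0.0030), at 3.46 ± 1.38 FPKM in ovaries and 12.5 ± 5.88 in uteruses (SD, n = 7). Oas3 was at 0.303 to 0.470 FPKM in ovaries and 0.441 to 1.84 in uteruses, a difference of 1.26 (SE 0.28) given as a description, since its ovary mean was under the filter. The uterus was above the ovary of the same number in 7 of 7 pairs for Oas1a, Oas2 and Oasl1, and in 5 of 7 for Oasl2. Oas3 was also above in 7 of 7, but it entered the comparison through its uterus level. The share of all genes with 7 of 7 pairs was not determined, so these counts are a description.

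Zbp1 was higher by 1.09 (SE 0.34, limma adjusted p = 0.0150), from 2.48 ± 1.30 FPKM in ovaries to 4.95 ± 2.00 in uteruses (SD, n = 7), but the call was lost without OC1 (adjusted p = 0.0505), OC3 (0.0622) or OT1 (a difference of 0.94). Iigp1 was higher by 1.08 (SE 0.22, limma adjusted p = 0.00091), with every uterus (13.1 to 34.7 FPKM) above every ovary (7.24 to 10.8 FPKM). Without OT2 its difference was 0.98, just under a fold of 2. Gbp2 was the other gene without overlap between the tissues, at 17.3 to 29.9 FPKM in ovaries and 30.3 to 65.2 in uteruses (0.85, SE 0.16, limma adjusted p = 0.00069); such a separation with the uterus above held for 11.5% of all genes, and the reverse for 13.5%.

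Other genes that passed the test below a fold of 2 were Parp14 (0.86), Psmb9 (0.92), Mx1 (0.78), Ifit1 (0.73), Gbp5 (0.63), Igtp (0.56), Usp18 (0.55), Gbp3 (0.53), Ifit2 (0.49), Tap1 (0.48), Psmb8 (0.42) and Irf1 (0.36). All 3 genes of the immunoproteasome and peptide transport, 3 of 5 GBPs, 2 of 4 IRGs and 3 of 5 IFIT and ISG15 pathway genes rose in the uterus, where 26.1% of all genes did, and in families of this size such counts are read only as a description. Bst2 alone fell (-0.35, SE 0.11, limma adjusted p = 0.0158), with the uterus below the ovary of the same number in all 7 pairs. Calhm6 did not pass the test (0.13, SE 0.43, limma adjusted p = 0.811), and neither did Rsad2 (-0.10), Ifih1 (-0.10), Stat2 (-0.08) or Ifi27 (-0.41). The sum of T and NK cell markers was 4.49 to 20.5 FPKM in ovaries and 25.3 to 79.8 in uteruses, and Ncr1, a natural killer cell receptor, was at 0 to 1.52 and 3.33 to 13.3 FPKM. The part of these cells in the tissue difference was not tested.

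The difference in response between the uterus and the ovary was fitted as an interaction. In limma, 0 of 14557 genes had an adjusted p under 0.05, and the smallest adjusted p of a listed gene was 0.844.

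The rest of the interferon pathway was covered by a list of 98 further genes, of which 97 were matched. Of 21 interferon ligands, all 13 Ifna genes, Ifnb1, Ifnk and Ifnl2 were listed at 0 in every library, and Ifng reached 0.260 FPKM in ovaries and 0.654 in uteruses. Ifne, the epithelial interferon of the female tract, was the ligand that passed the filter, at 1.00 to 5.55 FPKM in ovaries and 1.04 to 13.6 in uteruses. Its lowest value in each tissue was that of OT1, and its highest was OC2 in the ovary (5.55 FPKM) and OT2 in the uterus (13.6 FPKM). The uterus exceeded the ovary by 1.31 (SE 0.57), which did not pass the test (limma adjusted p = 0.0675).

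The receptor chains were expressed in every library. Ifnar1 was at 28.7 to 33.0 FPKM in ovaries and 20.4 to 26.1 in uteruses, Ifnar2 at 30.6 to 37.95 and 26.9 to 39.3, Ifngr1 at 26.5 to 31.6 and 29.0 to 43.1, and Ifngr2 at 17.1 to 21.9 and 12.7 to 16.8 FPKM. Ifnar1 (-0.38) and Ifngr2 (-0.47) were lower in the uterus (limma adjusted p = 0.0004 each) without overlap, while Ifngr1 was higher by 0.22 (limma adjusted p = 0.0404). The type III receptor showed opposite directions for its chains: Ifnlr1 was higher in the uterus by 1.25 (SE 0.27) and Il10rb lower, at -1.31 (SE 0.12). Jak2, which serves the type II receptor, was higher in the uterus by 1.45 (SE 0.21) and Jak1 by 0.30 (SE 0.08), and Tyk2 did not pass the test (0.10, SE 0.16). None of these 9 receptor and kinase genes was called between OC and OT in either tissue.

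Among 10 other signal factors, Socs3, an inhibitor of cytokine signalling, was called higher in the OT-group ovaries, at 7.82, 9.41 and 11.0 FPKM in OC and 22.7, 20.3, 13.4 and 21.1 in OT (1.02, SE 0.19), 1 call among 10 genes where 0.368% of all genes were called. Among 12 nucleic acid sensing genes none was called between OC and OT, where 0.368% of ovary genes and 2.23% of uterus genes were called higher. In a list this short that count is a description only. Tmem173 (STING) was higher in the uterus than in the ovary by 1.24 (SE 0.12). Of the 46 other interferon-induced genes in the list, 44 were tested in the uterus, and Ifi27l2a (1.87, SE 0.71) and Cxcl9 (1.85, SE 0.54) were called higher in OT, against 2.23% of all genes tested. Ifi27l2a, a relative of Ifi27, was at 67.2, 116 and 92.7 FPKM in the OC uteruses and 1126, 434, 238 and 98.9 in the OT uteruses. Cxcl9, a chemokine that draws T cells, was at 0.298, 0.608 and 0.512 FPKM in OC and 3.68, 3.07, 1.31 and 0.856 in OT uteruses, without overlap. Such a separation with OT above held for 6.46% of genes tested in the uterus. The OC mean of Cxcl9 was under the filter of 0.5 FPKM. Cxcl9 was thus tested only through its OT libraries and was bound to be higher in OT. Ifi27l2a and Cxcl9 were both highest in OT1, the library that was lowest for most of the IFIT and OAS genes. Of the 44 genes tested in the tissue comparison, 7 were higher in the uterus at a fold of 2, against 10.0% of all genes, and 1 lower, against 9.59%. The largest was Ifi205, a DNA-binding PYHIN protein (2.21, SE 0.26), and Gbp8 was the lower one (-1.27, SE 0.28). Among the ovaries OT2 was the highest library for 19 of 43 of these genes, against 16.0% of all genes tested, and among the uteruses for 21 of 44, against 12.7%.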

How the data were processed

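Ovary and uterus libraries of 3 OC and 4 OT mice were analysed. The authors trimmed the reads with Skewer, mapped them to mm10 with STAR 2.5, and the deposited FPKM per gene were estimated with Cufflinks 2.2.1 with the strand-specific option, with no pooling of replicates. Depth is therefore unknown, so no counting interval is given. Cuffdiff, which the authors used for OC against OT, needs the reads and was not run. Identifiers were matched to symbols and positions with GENCODE M21 (GRCm38).

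The listed genes, the pathway genes, the markers and the tests were chosen with earlier results of these data known. Genes whose mean FPKM reached 0.5 were fitted on log2(FPKM + 0.1) with limma 3.58.1 in R 4.3.3 (eBayes with a trend), 7 libraries per tissue for OC against OT and 14 for uterus against ovary, and p-values were adjusted over all genes tested by Benjamini-Hochberg. Values in every library are printed for Calhm6, genes called, the 5 largest changes and non-overlapping genes per tissue, the 5 largest tissue differences and the 5 highest means per tissue. Of 200 genes changed by a log2 of 2 in simulated data, limma recovered 98.5% in the ovary, 95.5% in the uterus and 95.5% between tissues. Recovery was counted at the cutoffs for a call, with an unadjusted p in the ovary and uterus. The simulated noise was normal and independent, with each gene's own SD, so it held no outlying library such as the OT1 uterus. Recovery in data with such a library may be lower. The recovery of differences smaller than a log2 of 2, as most of those reported here are, was not tested. Deviations of same-numbered ovary and uterus libraries correlated over genes at 0.07 to 0.25. Those of same-numbered OC and OT libraries, which come from separate mice, correlated at -0.01 to 0.335, highest for the OC1 and OT1 ovaries. The correlations therefore cannot decide whether same-numbered ovary and uterus libraries come from 1 mouse. Tables and figures were made with pandas 2.3.3, numpy 2.4.6 and matplotlib 3.10.9 (Python 3.11.15). Alternatives were pseudocounts of 1 and 0.01, no filter or one at 2 FPKM, scaling to the 75th percentile or by median ratios, robust eBayes, replicate blocks, 1 fit of all libraries, each group alone, and leaving out libraries.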

Additional observations from a re-analysis of the deposited data

Results flagged for a closer look

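Each listed gene was looked at in the 4 OT libraries of each tissue for a library far from the other 3. Of 75 such groups of 4 libraries 2 stood out, and chance alone gives about 1 in 20. In the ovary, Calhm6 in OT3 was lowest at 0.969 FPKM, with the other OT libraries between 1.47 and 1.54 FPKM. In the uterus, Mx1 in OT1 was lowest at 1.63 FPKM, with the other OT libraries between 2.18 and 2.23 FPKM.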

How the results depend on the processing

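No call was reversed under any alternative run. With a filter at a mean of 2 FPKM, Calhm6 was not tested and the genes called higher in OT were 0 in the ovary and 0 in the uterus, by construction. The uterus count was also 0 with a pseudocount of 1, and 0 without OT1 and OT2 (chosen after seeing the data), where Calhm6 fell under the filter. Leaving out each library in turn gave 1 to 2 genes called higher in the uterus, the second being Mx1 without OC2, and 1 in the ovary. For uterus against ovary, leaving out each number gave 3 to 4 genes at a fold of 2, 9 to 20 higher and 0 to 2 lower at an adjusted p under 0.05. A pseudocount of 1 gave 2 at a fold of 2. The OC libraries alone gave 7 higher and 0 lower, and the OT libraries alone 7 higher and 0 lower. Without the 4 mice with Hoxa10 above 10 FPKM in the ovary (chosen after seeing the data) the counts were 0, 0 and 0, on 3 mice, with Oas2 at 1.76. The cause of these changes was not tested beyond the smaller number of libraries. The median OT minus OC change ranged from -0.14 to 0.02 in the ovary and from -0.34 to 0.01 in the uterus when 1 library was left out, and was 0.11 in the uterus without OT1 and OT3 (chosen after seeing the data). With the mouse as a replicate block, 4 genes were higher in the uterus at a fold of 2 and 20 without that cutoff, and the median was 0.41. An OC and an OT library of 1 number come from separate mice. A replicate block on the number, with OT4 left out, gave 1 gene called higher in each tissue and medians of -0.08 and -0.18. Over all genes, the count called higher in OT went from 53 to 16 with a pseudocount of 1, to 99 without a filter and to 104 without OT3 in the ovary, and from 316 to 202 with a pseudocount of 1 in the uterus. Depth is unknown, and values near 0.1 FPKM are the least certain.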
